A study of Mus musculus with 11 samples.

Results

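The genes described here are 10 interferon-induced GTPases of the mouse. Gbp2, Gbp3, Gbp5, Gbp6, Gbp7 and Gbp9 are guanylate-binding proteins (GBPs). Igtp (also called Irgm3), Irgm1, Irgm2 and Iigp1 are immunity-related GTPases (IRGs). They were chosen by family name, and the list was proposed with the levels and the 3 group differences of these same libraries already known. All 10 were found among the 23255 genes of the deposited expression table, and all 10 passed the filter on low values that left 16225 genes. Because the list was drawn up with the results in view, the members' levels and differences are given as a description, without a test of the members as a set. The study measured RNA by sequencing in lung of C57BL/6 mice in 3 groups: 5 libraries labelled osimertinib, 3 labelled naphthalene and 3 labelled control. Osimertinib is an inhibitor of mutant epidermal growth factor receptor used against lung cancer. Naphthalene is a toxicant that injures the club cells of mouse airways. The series title places the comparison in the setting of osimertinib-induced pneumonitis. The labels give no dose, time, age or further allele, and do not say whether the mice labelled osimertinib had also received naphthalene. Nothing in the labels says that the libraries of a group came from separate animals, so a p-value below measures only the spread between these libraries, which may be technical.

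GBPs are large GTPases that interferon-gamma induces strongly and type I interferon induces as well. They assemble on the vacuoles and membranes of intracellular bacteria and parasites and help expose them to inflammasome sensors. IRG proteins act on the same vacuoles: Iigp1 is an effector that loads onto the vacuole membrane and disrupts it, while Irgm1, Irgm2 and Igtp sit on the cell's own membranes and hold the effectors inactive there. Interferons signal through JAK kinases to transcription factors that bind short promoter elements, with GAS elements typical of the interferon-gamma response and ISRE elements typical of the type I response, and IRF1 adds to the induction of many GBP genes. Macrophages, endothelium and epithelium of the lung all can express these genes.

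The promoters of these genes are shown first, because interferon signalling acts through short promoter elements of the kinds named above. RefSeq promoter windows (GRCm38.p6, 250 bases before to 50 bases after a gene's start) were found for 7 of the 10 members. Gbp6, Gbp9 and Iigp1 had no entry. An ISRE-type motif was searched as GAAA, any 2 bases and GAAA again, and a GAS-type motif as TTC, any 3 bases and GAA, on both strands. Matches are in capitals. Capitals with a pair of TTTC are an ISRE-type match read on the other strand. Each line gives the 120 bases before the start, 5′ to 3′ on the gene's strand, except for Gbp5, where the 150 bases from 180 to 31 before the start are shown.
Gbp2 (chr3:142620543-142620662, plus strand): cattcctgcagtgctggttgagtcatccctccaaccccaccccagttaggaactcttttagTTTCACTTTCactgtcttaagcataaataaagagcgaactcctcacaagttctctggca
Gbp3 (chr3:142559924-142560043, plus strand): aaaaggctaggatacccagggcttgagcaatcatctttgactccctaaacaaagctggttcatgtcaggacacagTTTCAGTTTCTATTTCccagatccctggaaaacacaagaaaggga
Gbp7 (chr3:142530216-142530335, plus strand): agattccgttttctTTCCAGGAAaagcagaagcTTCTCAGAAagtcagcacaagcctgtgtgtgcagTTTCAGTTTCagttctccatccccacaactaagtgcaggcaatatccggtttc
Gbp5 (chr3:142496754-142496903, plus strand): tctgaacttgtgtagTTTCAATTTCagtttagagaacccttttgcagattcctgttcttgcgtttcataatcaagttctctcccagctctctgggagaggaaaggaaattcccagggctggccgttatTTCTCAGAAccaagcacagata
Irgm1 (chr11:48871421-48871540, minus strand): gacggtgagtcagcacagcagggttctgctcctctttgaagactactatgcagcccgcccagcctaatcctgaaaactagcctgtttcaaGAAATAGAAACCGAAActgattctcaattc
Igtp (chr11:58199436-58199555, plus strand): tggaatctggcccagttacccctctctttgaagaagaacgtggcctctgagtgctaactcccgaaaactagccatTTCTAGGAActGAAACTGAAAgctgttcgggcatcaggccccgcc
Irgm2 (chr11:58214857-58214976, plus strand): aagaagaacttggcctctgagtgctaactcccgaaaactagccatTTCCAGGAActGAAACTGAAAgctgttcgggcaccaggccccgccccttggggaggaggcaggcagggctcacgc

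All 7 genes had an ISRE-type match, against 1131 of 32851 RefSeq promoter windows (3.44%). A GAS-type match was present in 4 of the 7 (Gbp5, Gbp7, Igtp and Irgm2), against 2726 of 32851 windows (8.30%). Both motifs together occurred in 149 windows of the whole table (0.454%). No ISRE-type match overlapped a GAS-type match in these windows. The ISRE-type match began 59 bases before the start in Gbp2, 53 in Gbp7, 165 in Gbp5, 34 in Igtp and 64 in Irgm2. Gbp3 and Irgm1 each had a pair of overlapping ISRE-type matches, at 45 and 39 bases before the start in Gbp3 and at 30 and 24 in Irgm1. The second RefSeq window of Gbp3 held neither motif. GAS-type matches began at 245 and 52 bases before the start in Gbp5, the first of them outside the stretch shown, and at 106 and 87 in Gbp7. In Igtp and Irgm2, neighbours on chromosome 11, the GAS-type match lay directly upstream of the ISRE-type match, at 45 and 75 bases before the start. Their windows, set against each other without gaps at an offset of 30 bases, were identical at 184 of 270 positions (68.1%), with 61 bases in the longest identical run. A match describes letters only and is not evidence of binding in these lungs.

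**Figure D1:**
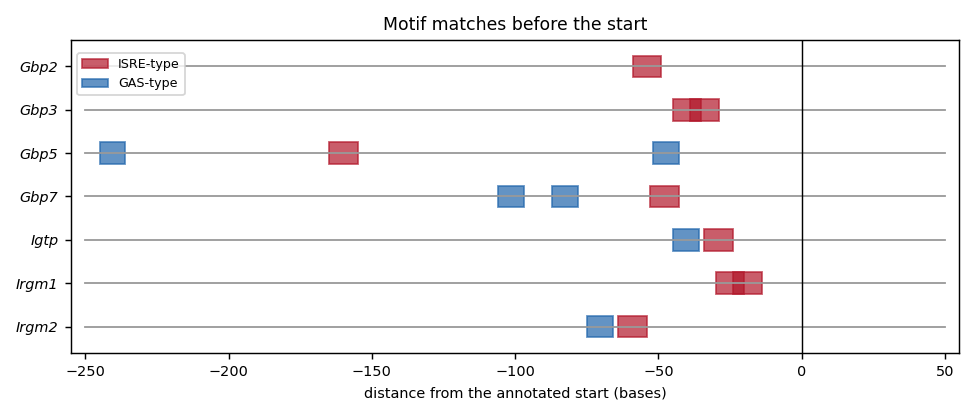
Positions of ISRE-type and GAS-type motif matches in the promoter windows of the 7 members with a RefSeq entry, as distance in bases from the annotated start (x axis); each symbol is 1 match. ISRE-type matches lie between 165 and 24 bases before the start, and Igtp and Irgm2 each have a GAS-type match directly upstream of it.

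The libraries differed in depth and composition. Between 5045361 and 13009975 reads were assigned to genes per library, but 1 gene, ENSMUSG00000119584, which the annotation used does not name, took 43.9% to 60.3% of them in 4 libraries (osimertinib 2 and all 3 naphthalene libraries) and at most 0.0337% in the other 7. That left 2018541 to 2965328 reads for all other genes in the 4 libraries and 8418669 to 13006929 in the other 7. Naphthalene libraries therefore rest on 25 to 200 reads per member, osimertinib libraries on 54 to 1079 and control libraries on 210 to 1112. The first principal component, with 38.4% of the variance, set osimertinib 3 at 72.7, apart from the other 10 libraries at -29.2 to 26.2. Endothelial, club cell and alveolar type 2 markers (8 of 8 of each list) were detected in every group, so the defining genes of the labelled tissue, lung, were present. Values below are CPM, read counts scaled to a common library size that had been adjusted by the trimmed mean of M-values (TMM).

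Per kilobase of exon, the members were present in control lung at levels from 2.00 to 17.9 CPM per kilobase. Gbp2 was the highest, with 17.9 ± 0.839 CPM per kilobase (SD, n = 3 control libraries). Irgm2 followed with 12.1 ± 1.63 and Gbp9 with 11.8 ± 0.381, and these 2 did not differ beyond their ranges. Gbp7 had 10.2 ± 0.773 and Igtp 9.95 ± 1.99, again with overlapping ranges. Iigp1 at 6.54 ± 0.273 lay below these with no overlap. Gbp6 at 5.39 ± 0.970 overlapped Iigp1, and Gbp3 at 5.32 ± 0.306 overlapped Gbp6. Irgm1 at 4.06 ± 0.297 and Gbp5 at 2.00 ± 0.157 lay apart at the bottom of the order. The exon lengths are those of an older annotation (GENCODE M21, GRCm38), so the order depends on its gene models.

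The 6 GBP genes differed from each other in how far the osimertinib libraries lay from the other groups. Gbp6, a GBP recruited to parasite vacuoles, stood at 31.2, 41.6, 52.5, 43.2 and 40.8 CPM in osimertinib libraries 1 to 5, at 21.2, 14.6 and 22.9 in naphthalene libraries and at 28.0, 29.7 and 38.7 in control libraries. Every osimertinib library lay above every naphthalene library, and every naphthalene library lay below every control library, while osimertinib and control libraries overlapped. The log2 difference was 1.06 (SE 0.18) for osimertinib against naphthalene, 0.37 (SE 0.18) for osimertinib against control and -0.70 (SE 0.20) for naphthalene against control. On the CPM scale the osimertinib mean was 2.14 times the naphthalene mean. Exons of Gbp6 share 29.0% of their bases with Gm43302 on the same strand, and estimated counts could be split between them. Summed with Gbp10 and Gm43302, a sum chosen after seeing the data, the level ran from 36.8 to 66.4 CPM in osimertinib, from 22.5 to 24.8 in naphthalene and from 29.7 to 40.6 in control libraries. The sum kept osimertinib above naphthalene with no overlap, at a log2 difference of 0.98.

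Gbp3, also a vacuole-directed GBP, was the member whose osimertinib libraries lay above both other groups. It had 19.9, 28.1, 26.1, 23.4 and 27.0 CPM in osimertinib libraries, against 14.2, 14.2 and 17.9 in naphthalene and 17.7, 18.1 and 16.2 in control libraries. All 5 osimertinib libraries exceeded all 6 others, and naphthalene and control libraries overlapped. Its log2 differences were 0.65 (SE 0.13) against naphthalene and 0.49 (SE 0.13) against control. On the CPM scale its osimertinib mean was 1.61 times the naphthalene mean and 1.43 times the control mean. Naphthalene against control gave -0.17 (SE 0.15).

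Gbp7, which takes part in the assembly of the oxidative and autophagic killing machinery at vacuoles, had 52.8, 85.8, 68.0, 63.0 and 52.1 CPM in osimertinib libraries, against 41.7, 47.9 and 47.7 in naphthalene and 53.4, 56.8 and 62.0 in control libraries. Osimertinib libraries lay above all naphthalene libraries, the lowest of them 52.1 against a highest of 47.9, and naphthalene libraries below all control libraries. The log2 differences were 0.46 (SE 0.15) for osimertinib against naphthalene, 0.14 (SE 0.15) against control, and -0.32 (SE 0.16) for naphthalene against control. Gbp2, a well-studied GBP of cell-autonomous defence in mice, had 37.6, 51.9, 69.0, 44.1 and 44.0 in osimertinib libraries, 36.9, 27.3 and 40.4 in naphthalene and 43.4, 47.5 and 44.4 in control libraries. Its osimertinib libraries overlapped both other groups, whereas naphthalene libraries all lay below the control libraries. Gbp2 differed by 0.48 (SE 0.18), 0.10 (SE 0.18) and -0.38 (SE 0.20) on the log2 scale in the same 3 comparisons.

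Gbp9 and Gbp5 showed the smallest differences between osimertinib and naphthalene among the 6 GBP members. Gbp9 had 67.5, 75.2, 75.9, 71.8 and 55.2 CPM in osimertinib, 63.1, 50.2 and 56.4 in naphthalene and 63.2, 59.8 and 59.8 in control libraries, with overlap in every comparison and log2 differences of 0.28 (SE 0.11), 0.17 (SE 0.11) and -0.11 (SE 0.13). Gbp5, which in macrophages promotes NLRP3 inflammasome activation, had 11.4, 14.3, 17.5, 11.3 and 8.53 in osimertinib, 9.47, 9.89 and 18.4 in naphthalene and 12.1, 13.8 and 14.0 in control libraries. Gbp5 was highest in naphthalene 3, whereas the other 9 members were highest in an osimertinib library. Its osimertinib mean was 1.00 times the naphthalene mean (log2 difference 0.03, SE 0.24), and the differences against control were -0.11 (SE 0.24) for osimertinib and -0.13 (SE 0.26) for naphthalene. The sign of the osimertinib against naphthalene difference turned in 8 of 27 alternative analyses. Some of the 27, such as leaving out a control library, cannot change that difference.

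Of the 4 IRG members, the regulatory Igtp and Irgm2 showed the largest differences between osimertinib and naphthalene libraries. Igtp had 16.2, 27.3, 41.8, 21.3 and 20.1 CPM in osimertinib libraries, against 9.16, 10.3 and 14.2 in naphthalene and 15.6, 21.6 and 23.2 in control libraries. Irgm2 had 37.0, 65.9, 64.1, 46.4 and 47.2 in osimertinib, 25.3, 23.7 and 28.9 in naphthalene and 37.7, 46.8 and 49.1 in control libraries. For both genes all 5 osimertinib libraries lay above all naphthalene libraries, and all naphthalene libraries below all control libraries, with osimertinib and control overlapping. The log2 differences for osimertinib against naphthalene were 1.05 (SE 0.26) for Igtp and 0.95 (SE 0.18) for Irgm2, with means 2.26 and 2.01 times those of naphthalene. Against control they were 0.26 (SE 0.26) and 0.20 (SE 0.18), and naphthalene against control gave -0.79 (SE 0.29) and -0.75 (SE 0.20). Igtp and Irgm2 exons overlap by 162 bases, 8.0% of Igtp; summed, the pair stood at 77.4 ± 21.5 in osimertinib (n = 5) and 37.2 ± 5.16 in naphthalene libraries (n = 3), a log2 difference of 1.00.

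Iigp1, the effector IRG, reached 74.1 and 72.1 CPM in osimertinib 2 and osimertinib 3, against 36.9, 47.0 and 38.4 in osimertinib 1, 4 and 5. Naphthalene libraries had 29.7, 28.1 and 39.5 and control libraries 38.6, 36.3 and 39.3. The groups overlapped in all 3 comparisons, at log2 differences of 0.66 (SE 0.23), 0.42 (SE 0.23) and -0.24 (SE 0.25). Irgm1, a regulator of autophagy and lysosomes, had 24.0, 29.6, 53.7, 25.2 and 21.9 in osimertinib, 19.3, 15.8 and 25.7 in naphthalene and 21.6, 24.5 and 24.7 in control libraries. Osimertinib 3 was set apart from the other 4 libraries of its group. Irgm1 overlapped in every comparison, with log2 differences of 0.53 (SE 0.25), 0.30 (SE 0.25) and -0.23 (SE 0.28).

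**Figure D2:**
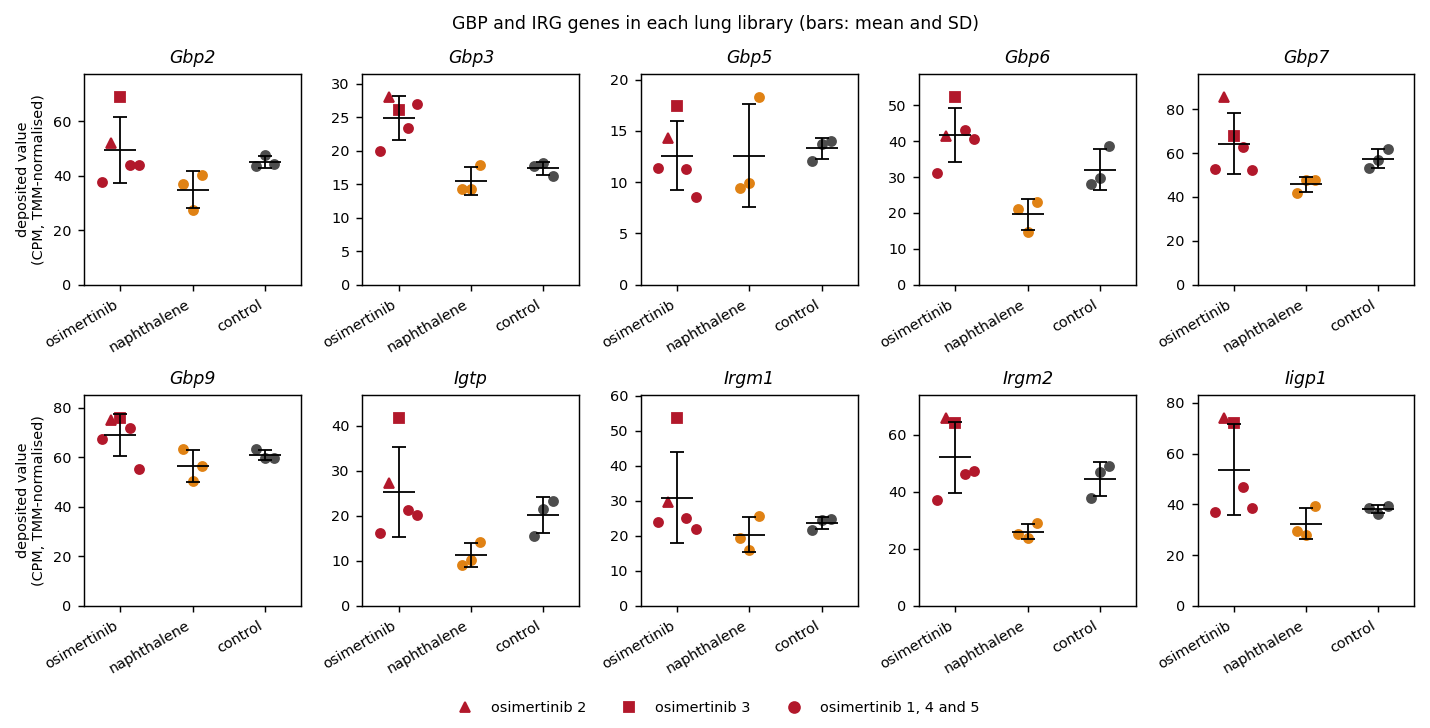
CPM (linear y axis from 0) of the 10 members in the osimertinib (n = 5), naphthalene (n = 3) and control libraries (n = 3), 1 point per library, with osimertinib 2 and osimertinib 3 marked by their own symbols; bars are group means with SD. In most panels those 2 libraries sit at the top and the naphthalene libraries at the bottom; Gbp5 is the exception, with naphthalene 3 highest.

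Set against the whole transcriptome, the mean log2 level was higher in osimertinib than in naphthalene libraries for 10 of 10 members (Gbp5 by 0.03, a sign that turned under median-ratio and quantile scaling), beside 60.5% of all genes, with a median log2 difference of 0.59 beside 0.06 over all genes. Of the 10, 5 were higher with no overlap between groups (Gbp3, Gbp6, Gbp7, Igtp and Irgm2), beside 619 of 16225 genes (3.82%), and 0 were lower with no overlap, beside 2.12% of genes. None of the members passed limma's test at an adjusted p of 0.05, and 0 of 16225 genes did (0.0%), with the smallest member adjusted p at 0.17. At an unadjusted limma p under 0.05 there were 8 members and 1671 genes (10.3%). edgeR's quasi-likelihood test on the recovered reads called 0 members and 0 genes. DESeq2 called 2 members, Gbp6 and Irgm2, both higher, beside 11 of 15513 genes called higher (0.0709%), and called 0 members lower, beside 0.0645% of genes; its adjusted p was 0.00667 for Gbp6 and 0.0199 for Irgm2. The list was chosen with this contrast known, so the counts are given side by side and nothing is read from them.

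Against control libraries the same osimertinib libraries showed smaller differences, and the 2 comparisons share the osimertinib libraries. The mean difference was above 0 for 9 of the 10 members, beside 48.0% of all genes, with a median log2 difference of 0.23 beside -0.01 over all genes, and 1 member was higher with no overlap (Gbp3), beside 472 of 16225 genes (2.91%), and 0 were lower, beside 3.43%. No member passed limma's test, which 1 of 16225 genes did (0.00616%), and edgeR called 1 gene as well (0.00616%) and no member. DESeq2 called 0 members, beside 0.26% of genes called higher and 0.204% called lower; 1 member and 779 genes had an unadjusted limma p under 0.05. Scaling each library to equal totals turned the median to -0.13, with all genes at -0.34. The mean log2 level was lower in naphthalene than in control libraries for 10 of 10 members, beside 62.0% of all genes, with a median of -0.28 beside -0.06 over all genes. Of these, 5 (Gbp2, Gbp6, Gbp7, Igtp and Irgm2) were lower with no overlap, beside 1824 of 16225 genes (11.2%), and 0 were higher, beside 4.94%. None passed limma's test, which 0 of 16225 genes did (0.0%), with 3 members and 1211 genes at an unadjusted p under 0.05. edgeR called 0 members and 0 genes (0.0%). DESeq2 gave an adjusted p to only 4856 genes here, and to none of Gbp3, Gbp5, Igtp and Irgm1, which could not be called. It called 0 of the other members, beside 0.165% of the 4856 genes called higher and 0.0618% called lower. For 9 of 10 members, Gbp5 being the exception, the means stood in the order osimertinib, control, naphthalene from high to low.

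The size of the osimertinib differences rests in part on 2 libraries. Of the 10 members, 5 were highest in osimertinib 3 and 4 in osimertinib 2. Both libraries were the 2 highest of all 11 for 7 members, beside 611 of 16225 genes (3.77%). Naphthalene 1 was among the 3 lowest libraries for 9 members, naphthalene 2 for 10 and naphthalene 3 for 5. The mean log2 level over the members was 4.94, 5.47, 5.66, 5.17 and 5.03 in osimertinib 1 to 5, 4.58, 4.45 and 4.88 in naphthalene and 4.92, 5.04 and 5.10 in control libraries. Osimertinib 1 and 5 thus stood among the controls. Since osimertinib 2 and 3 had the highest mean levels over the members, leaving them out had to lower the osimertinib mean. The values that follow show only by how much. Without osimertinib 3 the median difference was 0.49 against naphthalene and 0.12 against control. Without osimertinib 2 it was 0.53 and 0.18. With both left out it was 0.31 against naphthalene, where 9 members lay above 0, and -0.01 against control, where 5 members lay above 0. Without both, the log2 difference against naphthalene was 0.95 for Gbp6, 0.74 for Igtp, 0.72 for Irgm2 and 0.57 for Gbp3, and -0.20 for Gbp5. Against control it was 0.40 for Gbp3, 0.25 for Gbp6, 0.09 for Iigp1, 0.08 for Gbp9 and 0.01 for Irgm1, and it was below 0 for Irgm2 at -0.03, Gbp7 at -0.04, Igtp at -0.05, Gbp2 at -0.11 and Gbp5 at -0.33.

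**Figure D3:**
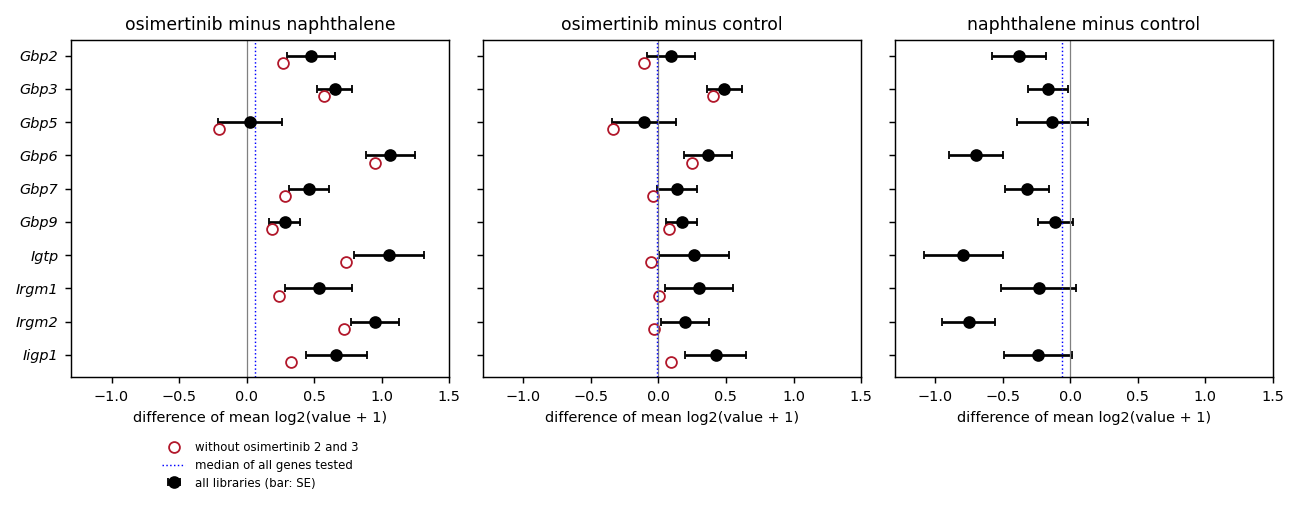
Difference of mean log2(value + 1) for the 10 members in 3 comparisons (x axis, log2 units; osimertinib minus naphthalene, osimertinib minus control, naphthalene minus control), with bars of 1 standard error from limma; open circles leave out osimertinib 2 and 3. Osimertinib minus naphthalene is above 0 for all 10 members, at 0.03 for Gbp5 and 1.06 for Gbp6, and the open circles are lower, as the median of 0.31 without those libraries shows.

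The read share taken by ENSMUSG00000119584 moved with the groups. All 3 naphthalene libraries had a high share and no control library did, so share and group cannot be told apart between naphthalene and control. Osimertinib 2, the 1 osimertinib library with a high share, lay above all 3 naphthalene libraries for 9 of 10 members, beside 23.0% of genes, and below the highest of them for Gbp5, with ratios to the naphthalene mean from 1.14 to 2.54 and a median of 1.85. Between osimertinib and naphthalene, only this 1 library parts share from group. It was also among the 2 highest of all 11 libraries for 8 members, so it cannot tell share from group for the members. A fit that included the share, and that rests on osimertinib 2 alone for it, gave a median of 0.86 for osimertinib against naphthalene and -0.61 for naphthalene against control. Scaling mattered to the size: with equal totals the median was 1.70 for osimertinib against naphthalene and -1.80 for naphthalene against control, but all genes then shifted by 1.10 and -1.45. Relative to the median of all genes, the members stood at 0.53 to 0.60 for osimertinib against naphthalene over the 5 scalings tried. They stood at 0.21 to 0.24 for osimertinib against control and at -0.35 to -0.21 for naphthalene against control. Apart from quantile normalisation, these scalings multiply each library by a single factor, which shifts genes nearly alike. Their agreement after subtracting the median therefore largely follows from the method.

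Summed markers of several cell types differed between the groups, some in the direction of the members and some against it. In bulk tissue fewer cells of a type and less RNA per cell cannot be told apart. The 10 monocyte and macrophage markers, all detected in every group, summed to 390 to 526 CPM in osimertinib libraries, 314 to 367 in naphthalene and 337 to 371 in control libraries, with no overlap of osimertinib with either group. Their log2 sum had a Pearson correlation of 0.858 with the members' mean score over the 11 libraries, which share depth and group. The same correlation was 0.743 for alveolar macrophage, 0.610 for alveolar type 2, 0.522 for neutrophil, 0.287 for dendritic cell, -0.08 for endothelial, -0.288 for T cell, -0.431 for club cell, -0.464 for NK cell and -0.596 for B cell markers, all given as descriptions. The 8 alveolar macrophage markers summed to 535 to 1051 in osimertinib, highest in osimertinib 3, 428 to 639 in naphthalene and 431 to 444 in control libraries. Singly they were mixed: 6 lay above 0 and 2 below in osimertinib against naphthalene, at log2 differences from -0.46 to 0.58. Against control 6 also lay above 0 and 2 below, from -0.79 to 0.80, so the sum does not speak for each marker. Neutrophil markers (8 genes, Ly6g at 0 in all control libraries) summed to 403 in osimertinib 3 and 400 in naphthalene 3 and to at most 72.2 in any other library. The 8 B cell markers ran the other way, at 38.8 to 99.0 in osimertinib, 139 to 204 in naphthalene and 128 to 206 in control libraries. T cell markers summed to 25.7 to 37.0, 35.7 to 50.9 and 40.5 to 43.8 in the same order of groups, NK cell markers to 14.8 to 43.6, 30.5 to 42.7 and 38.6 to 44.2, and dendritic cell markers to 75.4 to 89.8, 74.8 to 79.5 and 82.3 to 93.6, with no gene of these lists at 0 in any group. Endothelial markers summed to 1359 to 1719, 1398 to 1605 and 1676 to 1770, club cell markers to 3734 to 10680, 6234 to 11364 and 13555 to 16942, and alveolar type 2 markers to 14043 to 27738, 12848 to 19206 and 11839 to 13337. The part of any of these cell types in the members' differences was not tested.

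The 10 members varied together across the libraries, Gbp5 the least closely, with its highest Pearson correlation at 0.701 (Irgm1). Over the 45 pairs the Pearson correlation of log2 levels ranged from 0.175 (Gbp3 with Gbp5) to 0.953 (Igtp with Irgm2), with a median of 0.743 over 11 libraries that share depth, treatment and scaling. Igtp followed the mean of the other members most closely, at 0.955, with Irgm2 at 0.929, Iigp1 at 0.928 and Gbp2 at 0.923; Gbp5 stood at 0.500. Of 11685 other genes with a mean of at least 5, the 8 most like the members' mean pattern were Slco2b1 (Pearson r 0.957, Spearman rho 0.818), Inf2 (0.939, 0.827), Fam160a1 (0.939, 0.900), Tgtp2 (0.936, 0.918), Wdr91 (0.935, 0.691), Cmpk2 (0.926, 0.700), Tgtp1 (0.924, 0.809) and Fxyd6 (0.923, 0.745). Without osimertinib 3 and naphthalene 2, the libraries farthest from the median, r was between 0.801 (Cmpk2) and 0.902 (Slco2b1). Tgtp1 and Tgtp2 are IRG genes themselves, and Cmpk2 is a mitochondrial nucleotide kinase that interferon induces. Slco2b1, an organic anion transporter, had 11.1, 14.3, 15.7, 11.6 and 11.9 CPM in osimertinib, 8.84, 8.70 and 10.6 in naphthalene and 11.5, 10.3 and 11.2 in control libraries.

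Further genes of the family were described from a list of 21, of which 19 were in the file and 16 passed the filter; Gbp2b, Gbp11 and Irgc1 stayed under a mean of 1. In osimertinib against naphthalene, 15 of these 16 lay above 0, beside 60.5% of all genes, with a median of 0.43, and 4 (Gbp4, Gbp10, Ifi47 and Gm4951) were higher with no overlap, beside 3.82%. None passed limma's test; 8 had an unadjusted p under 0.05, beside 10.3% of all genes. Gbp4 had 43.1, 50.3, 79.1, 56.5 and 37.2 CPM in osimertinib libraries, against 28.4, 26.5 and 32.6 in naphthalene and 43.6, 43.3 and 58.1 in control libraries (osimertinib against naphthalene 0.80, SE 0.20, limma adjusted p = 0.213). Gm4951, an IRG-like gene, had 3.66, 9.27, 10.9, 7.78 and 6.20 in osimertinib, 2.84, 2.37 and 2.29 in naphthalene and 3.01, 4.39 and 3.68 in control libraries (1.22, SE 0.27, limma adjusted p = 0.188). The effector pair Tgtp1 and Tgtp2 followed osimertinib 3 most of all: Tgtp2 had 43.4, 65.9, 133, 49.5 and 33.4 in osimertinib libraries, against 31.9, 22.9 and 39.5 in naphthalene and 39.9, 43.3 and 52.7 in control libraries. Tgtp1 and Tgtp2 summed, as near-identical copies, ran from 46.8 to 163 in osimertinib and 28.1 to 49.6 in naphthalene libraries, so the groups overlapped. Ifi47 had 21.2, 33.6, 52.3, 25.9 and 22.7 in osimertinib, 18.6, 19.0 and 20.7 in naphthalene and 25.7, 22.9 and 27.3 in control libraries.

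Gvin1, a very large interferon-induced GTPase, had 136 to 209 in osimertinib libraries (median 164), 140, 123 and 111 in naphthalene and 140, 130 and 135 in control libraries. Irgq, an IRG-related gene, had 24.7, 25.4, 19.7, 24.0 and 27.9 in osimertinib, 29.4, 24.1 and 19.7 in naphthalene and 23.7, 28.5 and 27.0 in control libraries, a log2 difference against naphthalene of 0.01. Against control, 11 of the 16 lay above 0, beside 48.0% of all genes, with a median of 0.27. In naphthalene against control, 12 of 16 lay below 0, beside 62.0% of all genes, with a median of -0.20, and Gbp4, Tgtp2, Ifi47 and Gm4951 were lower with no overlap, beside 11.2%. Of the remaining family genes, Gbp10 had 2.75, 2.91, 4.63, 2.73 and 3.13 in osimertinib, 1.58, 0 and 1.84 in naphthalene and 1.65, 1.24 and 1.74 in control libraries. The osimertinib against naphthalene differences were 0.29 for Gbp8, 0.76 for Gm12250, 0.01 for Gm12185, 0.41 for Gm5431, 0.29 for F830016B08Rik, 0.07 for 9930111J21Rik1, -0.15 for 9930111J21Rik2, 0.40 for Gm4070 and 0.45 for Gvin1, all with overlapping groups.

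**Figure D4:**
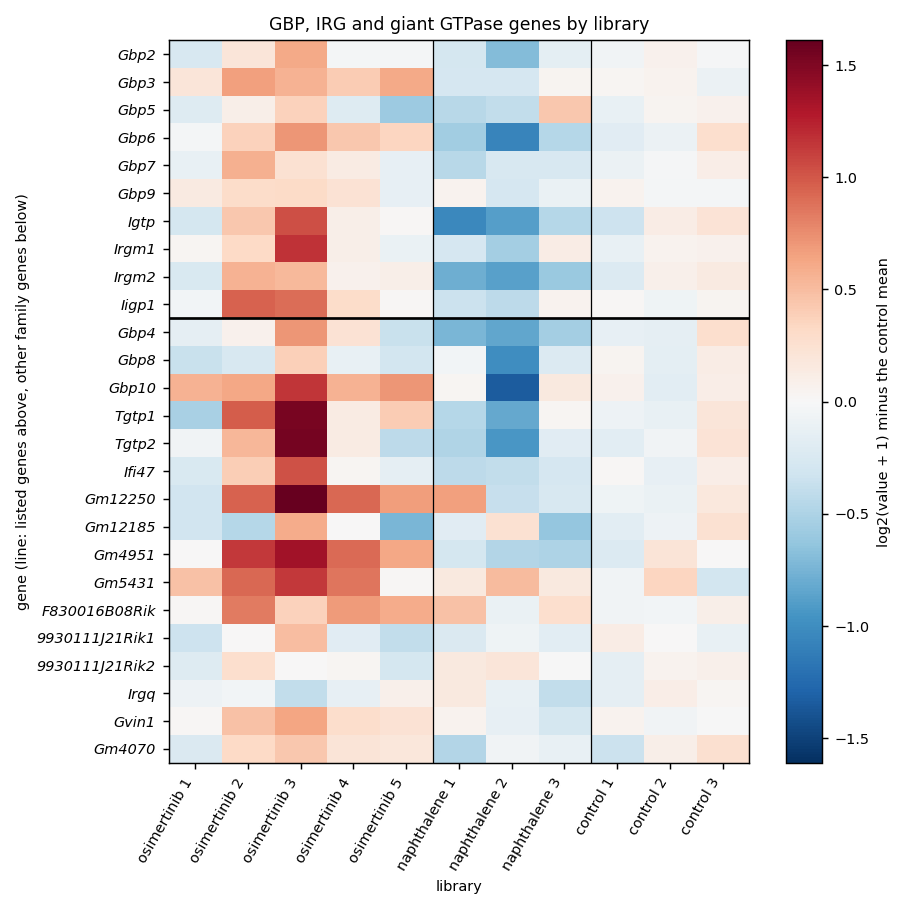
Level of each GBP and IRG gene in the 11 libraries (columns; osimertinib, naphthalene, control) as log2(value + 1) minus the mean of the control libraries (colour scale, log2 units), for the genes that passed the filter on low values. Osimertinib 2 and 3 are mostly above and naphthalene libraries mostly below the control mean among the 10 members; Irgq, with a log2 difference of 0.01, shows no such pattern.

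The interferon pathway around the members was read from 9 lists, 124 genes in all with the further family genes counted in, of which 116 were in the file and 107 passed the filter. In osimertinib against naphthalene none of the 107 passed limma's test (smallest adjusted p = 0.105), 42 had an unadjusted p under 0.05 (10.3% of all genes did), edgeR called 0 and DESeq2 called 3 (Isg15, Oasl2 and Ifngr1). With no overlap, 26 were higher and 0 lower, beside 3.82% and 2.12% of all genes. In osimertinib against control, 0 passed limma's test, 22 had an unadjusted p under 0.05 (4.80% of all genes did), edgeR called 0, DESeq2 called 3 (Ifit1, Oasl2 and Ifi44), and 18 were higher and 0 lower with no overlap, beside 2.91% and 3.43% of all genes. In naphthalene against control, 0 passed limma's test and 10 had an unadjusted p under 0.05 (7.46% of all genes did). edgeR and DESeq2 called 0, but DESeq2 gave no adjusted p to some of them, such as Ifi47 and Gbp8. In that comparison 2 were higher and 23 lower with no overlap, beside 4.94% and 11.2% of all genes. The lists were drawn up with results of these data known. Of ligands, Ifng was listed at 0 in osimertinib 2, naphthalene 1 and naphthalene 3 and at most 0.791 CPM elsewhere, too low to compare, and 3 of the 4 ligand genes that passed the filter lay above 0, with a median of 0.27. Il18, which drives interferon-gamma production, had a difference of 0.31 (SE 0.36). Among receptors, JAKs, STATs and IRFs, 11 of 17 lay above 0, beside 60.5% of all genes, with a median of 0.16. The other 6 lay below 0, the lowest at -0.56. Ifngr1, the ligand-binding chain of the interferon-gamma receptor, had 103, 106, 105, 97.2 and 97.8 in osimertinib libraries, against 71.7, 70.0 and 85.8 in naphthalene and 85.3, 85.5 and 89.7 in control libraries (0.43, SE 0.085, limma adjusted p = 0.178, DESeq2 adjusted p = 0.049). Irf9, the DNA-binding part of the type I complex, had 35.4, 39.4, 64.9, 38.9 and 40.4 in osimertinib, 18.6, 20.6 and 30.3 in naphthalene and 34.3, 29.8 and 29.2 in control libraries (0.89, SE 0.20). Irf7 and Stat2 were likewise higher in every osimertinib library than in every naphthalene and control library, with log2 differences against naphthalene of 0.90 (SE 0.26) and 0.67 (SE 0.15). Irf3 overlapped, at 0.51 (SE 0.24). Irf1, which interferon-gamma induces and which drives many GBP genes, overlapped between groups at 54.6 to 75.5, 49.9 to 62.4 and 61.3 to 71.3 in osimertinib, naphthalene and control libraries. Irf1, Ifng, Ifngr1 and Jak2 were named after their values were seen; Jak2 had a log2 difference of -0.06 (SE 0.11) against naphthalene.

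The type I interferon targets showed the largest list median in osimertinib against naphthalene, 0.80 beside 0.06 over all genes. Of these targets, 19 of 20 lay above 0, beside 60.5% of all genes, and 8 were higher with no overlap, beside 3.82%. Against control, 20 of 20 lay above 0, beside 48.0% of all genes, with a median of 0.63 and 8 higher with no overlap, beside 2.91%. Oasl2, an antiviral protein related to the oligoadenylate synthetases, had 31.5, 42.6, 48.2, 38.6 and 38.6 in osimertinib libraries, against 18.9, 15.8 and 21.6 in naphthalene and 23.4, 26.7 and 25.5 in control libraries, with no overlap with either. Isg15, a ubiquitin-like modifier, had 6.26, 8.47, 21.1, 7.98 and 7.46 in osimertinib, 1.58, 1.19 and 3.67 in naphthalene and 3.81, 3.34 and 4.34 in control libraries. DESeq2's adjusted p for osimertinib against naphthalene was 0.000375 for Oasl2 and 0.0199 for Isg15, and limma's was 0.105 and 0.178. Oas2 and Rsad2, both antiviral effectors, differed by 1.13 (SE 0.35) and 1.09 (SE 0.33) with overlapping groups. In the MHC class I and immunoproteasome list, 12 of 12 lay above 0 against naphthalene, beside 60.5% of all genes, with a median of 0.36. In naphthalene against control 12 of 12 lay below 0, beside 62.0% of all genes, with a median of -0.40. Of these, 7 were lower with no overlap, beside 11.2% of genes. Against control the osimertinib median was 0.05. Nlrc5, the transactivator of MHC class I genes, had 26.0, 34.1, 48.1, 29.7 and 26.3 in osimertinib, 18.9, 19.8 and 18.8 in naphthalene and 30.9, 32.0 and 29.3 in control libraries. Psmb9, an immunoproteasome subunit, had 15.8, 16.7, 43.1, 19.0 and 16.6 in osimertinib, 12.0, 11.1 and 12.8 in naphthalene and 17.9, 20.8 and 18.9 in control libraries, with osimertinib 3 set apart. Psmb8 and Psme2, further parts of the immunoproteasome, overlapped at 0.60 (SE 0.35) and 0.58 (SE 0.37).

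The list of other interferon-gamma targets, which includes MHC class II genes, had a median of 0.22 in osimertinib against naphthalene. Of its genes, 7 of 9 lay above 0, beside 60.5% of all genes. The MHC class I and immunoproteasome genes, at a median of 0.36, were listed apart from it. Cd274 had 12.1, 18.8, 19.1, 15.3 and 11.1 in osimertinib libraries. It had 12.0, 10.3 and 11.9 in naphthalene and 13.9, 14.9 and 14.3 in control libraries. The MHC class II genes H2-Aa, H2-Eb1 and H2-Ab1 differed by 0.32 (SE 0.22), 0.26 (SE 0.16) and 0.22 (SE 0.12), all with overlap. Brakes of the pathway gave 5 of 7 above 0 and a median of 0.18, and Usp18, which removes Isg15 from proteins, had 12.6, 12.4, 26.6, 13.3 and 13.5 in osimertinib, 8.84, 9.89 and 9.64 in naphthalene and 11.3, 9.30 and 9.36 in control libraries. Socs3 and Ptpn2 overlapped at 0.38 (SE 0.21) and 0.18 (SE 0.17), and Pias1 at -0.22 (SE 0.093). Partners of the GTPases at vacuoles gave 12 of 14 above 0 and a median of 0.14. Among them Rnf213, an E3 ubiquitin ligase, had 328, 389, 484, 333 and 338 in osimertinib libraries, against 262, 251 and 299 in naphthalene and 294, 281 and 270 in control libraries, and Trim21, which binds antibody inside cells, had 14.9, 13.5, 16.2, 14.3 and 13.5, against 9.47, 10.3 and 10.6 in naphthalene and 14.9, 13.9 and 13.2 in control libraries. Gabarapl1 and Gabarapl2, which conjugate to autophagic membranes, differed by 0.33 (SE 0.093) and 0.43 (SE 0.17). Inflammasome genes stood at a median of 0.00, with 4 of 8 above 0, and Il1b at 0.37 (SE 0.66), Pycard at 0.35 (SE 0.20) and Gsdmd at 0.20 (SE 0.23) overlapped between groups; Casp1 had 2.75, 6.88, 10.8, 4.92 and 4.40 in osimertinib, 6.31, 5.54 and 7.80 in naphthalene and 5.28, 6.02 and 4.34 in control libraries. In osimertinib against control and in naphthalene against control, the medians were 0.33 and 0.20 for ligands, 0.10 and -0.07 for receptors, JAKs, STATs and IRFs, 0.06 and -0.07 for brakes, 0.11 and -0.01 for interferon-gamma targets, 0.08 and -0.02 for partners and 0.07 and 0.12 for inflammasome genes; for type I targets the naphthalene against control median was -0.09.

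**Figure D5:**
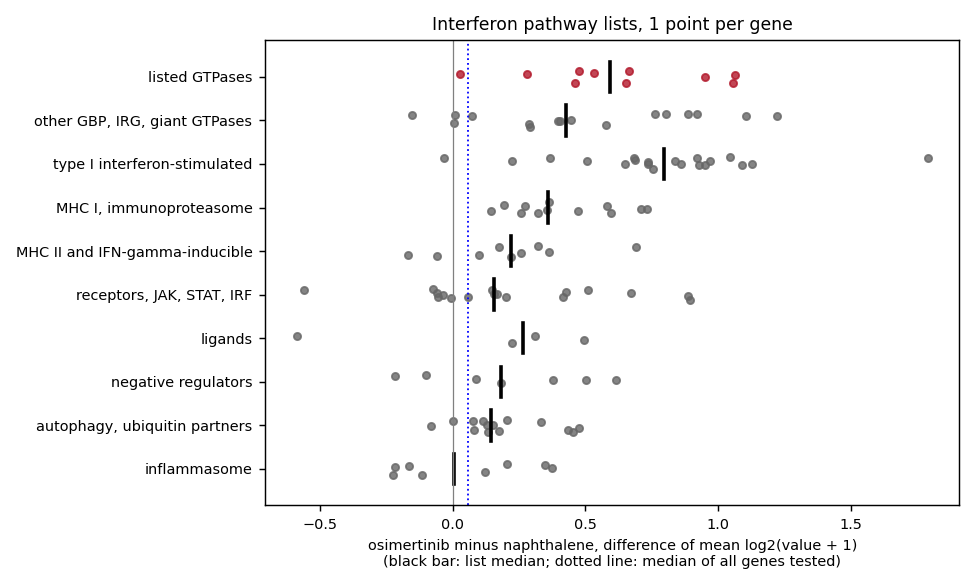
Difference of mean log2(value + 1), osimertinib minus naphthalene, for each gene of the members and of the pathway lists (1 point per gene; x axis in log2 units); black bars are list medians and the dotted line is the median of all genes tested. The type I interferon list and the members sit farthest to the right, at medians of 0.80 and 0.59, and the inflammasome list sits at 0.00, beside 0.06 for all genes.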

How the data were processed

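Per the labels' protocols, total RNA was freed of ribosomal RNA and made into strand-specific libraries; the tissue is labelled lung, while the protocol text speaks of cells. Trimmomatic 0.38, RSEM 1.3.0, Bowtie2, edgeR and the build GRCm39 are named, without roles, in the submitters' processing notes. The deposited values form 1 table of normalised signal per gene in 11 libraries. They matched CPM of the library size times edgeR's TMM factor, and 100% of values came out as whole reads within 0.01; the deposited values show this, no header states it. Of 23255 gene IDs, 23123 were named with GENCODE M21 (GRCm38), which also gave exon lengths and overlaps. Replicate pairs differed beyond sampling noise (chi-square per degree of freedom at least 3.44), so none was counted as a duplicate.

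The main fit was limma 3.58.1 (R 4.3.3) with a variance trend on log2(value + 1), genes with a mean of at least 1 (16225), all 3 groups in 1 fit and Benjamini-Hochberg adjustment over all genes at 0.05; fold changes are on that log2 scale, which understates low genes. edgeR 4.0.16 and DESeq2 1.42.0 were run on the recovered reads as alternatives. The limma fit was also tried on simulated data, but the outcome is not given here, so no statement on its power is made. Deviations from the group means of same-numbered osimertinib and naphthalene libraries correlated at 0.122, 0.159 and 0.523, all over the 0.1 set for treating numbers as pairs, and a blocked alternative was fitted. Differently numbered libraries reached like values (0.137 for osimertinib 1 with naphthalene 2, 0.193 for osimertinib 2 with naphthalene 1, 0.270 for osimertinib 4 with naphthalene 2), so among the numbers only 3 stands out, and the labels do not state a pairing; osimertinib 4 and 5 have no partner. The members and lists were chosen with earlier results of these data known. Named genes were all members and further family genes, up to 4 genes per pathway list with a mean of at least 5 and the largest osimertinib minus naphthalene difference (a few are shown), and the 8 genes most like the members' pattern. Intervals were not computed; counting error is set by the reads given.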

Additional observations from a re-analysis of the deposited data

Results flagged for a closer look

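Of 64 genes examined in the 5 osimertinib libraries, 17 had their highest library apart from the other 4 by more than 0.71 of the group's range, and that library was osimertinib 3 in all 17. For a single gene, chance sets apart about 1 in 20. Many of the 64 genes vary together. Some were picked for their osimertinib minus naphthalene difference or for likeness to the members. The 17 therefore cannot be set against that rate, and the share over all genes is not given. The cause was not tested.

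Among GBP and IRG genes, osimertinib 3 stood apart for Irgm1 at 53.7 CPM, for Gbp8 at 8.82 and for Gbp10 at 4.63. In the interferon signalling genes it did so for Stat2 at 65.3, Irf1 at 75.5, Irf3 at 65.8, Irf7 at 46.9, Irf9 at 64.9 and Usp18 at 26.6. In antigen presentation the values were 43.1 for Psmb9, 82.2 for Psmb8, 110 for Psme2 and 433 for H2-Aa. The remaining values were 21.1 for Isg15, 17.1 for Il18, 64.7 for Il1b and 29.2 for Gsdmd.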

How the results depend on the processing

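Over the alternatives, 768 of 819 values of single members moved by less than 1 SD of the replicates, and 42 of the 51 that moved did so under equal-totals scaling. Some of the 819 could not move. Leaving out a library of a group outside the comparison does not change a member's log2 difference. Nor does another filter on low values, fitting only the groups compared or taking out the variance trend. The 768 therefore overstate how stable the values are. Equal totals called 14420, 96 and 15763 genes (osimertinib against naphthalene, osimertinib against control, naphthalene against control; 0, 1 and 0 in the fit as reported), 10 members in the first and last, with medians of 1.70, -0.13 and -1.80, and 105 and 106 pathway genes in the first and last; in 4 libraries totals are set by 1 gene. Equal totals outside ENSMUSG00000119584 called 7 and 0 genes in the first 2, 2 members and 4 pathway genes in the first, with medians of 0.84 in the first and -0.73 in the last. Quantile normalisation called 1 gene and 1 pathway gene in the first. Fitting only the groups compared called 1 and 21 genes in the first and last. Array weights called 4, 149 and 5 genes, and 2 and 7 pathway genes in the first 2. DESeq2 called 21, 75 and 11 genes, 2 members in the first, and 3 and 3 pathway genes in the first 2. With no variance trend, 0 genes were called in osimertinib against control. The read-share term gave 2, 2 and 2 genes and medians of 0.86 and -0.61. Without osimertinib 2 and 3 together, 47, 2 and 38 genes were called, with medians of 0.31 and -0.012 and 2 pathway genes in the first and 1 in the last. The cause was not tested. Leaving out each library in turn gave 0 to 11, 0 to 2 and 0 to 12 genes, 0 to 0 members, 0 to 1 pathway genes in the first and 0 to 0 in the others, and medians of 0.49 to 0.73, 0.12 to 0.34 and -0.41 to -0.18. The 11 and 12 were without osimertinib 2; the 0.12 was without osimertinib 3, the osimertinib against control median was 0.15 without control 1, and the -0.18 was without naphthalene 2. With the replicate block, 0 genes were called in osimertinib against control, the medians were 0.69, 0.32 and -0.28, and no other call changed. Same-numbered libraries correlated at -0.0385, 0.0746 and -0.152 between osimertinib and control. Between naphthalene and control they correlated at -0.0640, 0.203 and -0.0928. Only the 0.203, for number 2, was over 0.1, and the differently numbered naphthalene 3 and control 1 reached 0.235. The labels state no pairing. The sign of the osimertinib against control difference turned for Gbp2 in 5, Irgm2 in 4, Gbp7 and Igtp in 3, Gbp5 and Gbp9 in 2 and Irgm1 in 1 of its alternatives. Naphthalene libraries rest on 25 to 40 reads for Gbp5 and 26 to 31 for Igtp, which limits their precision most.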
